A study of Mus musculus with 2 samples.

Results

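Cytochrome P450 family 2 is the largest family of drug- and steroid-oxidising P450 genes in mouse liver. Its members were taken here as every gene symbol in the count files that starts with Cyp2, a single lower-case letter and a digit, which gave 50 of 22609 symbols in 13 subfamilies. Of these, 33 had at least 50 reads summed over both libraries, the minimum for a ratio, and they are called measured below. By the same minimum 11411 genes of the whole table were measured. The other 17 members held 122 wild-type reads together and 56 knockout-labelled reads.

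The samples were livers of male C57BL/6 mice kept for 16 weeks, from 8 weeks of age, on a diet in which 45% of calories came from fat. One library is labelled wild type (C57BL/6J mice, per the treatment protocol) and 1 is labelled Lrg1 knockout, a deletion in the whole body. The labels do not say how many mice entered a library. Neither group has a replicate and no test can be made, so each difference is between these libraries and not between genotypes. Lrg1 itself was counted with 26958 wild-type reads and with 17572 under the knockout label, so the label was not borne out by a loss of Lrg1 reads. That library is therefore called the knockout-labelled library, and every direction drawn from it rests on the label alone. The libraries held 23311906 and 18738397 reads in genes. Levels are given as CPM, reads of a gene in 1000000 reads of the library, with library sizes scaled by the trimmed mean of M-values (TMM). Pairs of values give wild type first. A ratio is always knockout-labelled over wild type, on the log2 scale, with an exact 95% interval that covers counting error only.

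P450 enzymes are haem proteins held in the membrane of the endoplasmic reticulum. They take electrons from NADPH through the reductase encoded by Por, in some reactions with help from cytochrome b5, and insert 1 atom of oxygen into a drug, steroid or fatty acid. Mouse liver is known for family 2 genes that are expressed more in females or more in males under the control of pituitary growth hormone, for genes restricted to hepatocytes around the central vein, and for genes induced through the xenobiotic receptor CAR. All 6 hepatocyte markers listed (Alb, Apoa1, Ttr, Trf, Fgb and Tat) were measured, at 116106 CPM together (wild type) and 101877 CPM (knockout-labelled). Markers of kidney tubule (4 genes), lung club cells (3 genes) and pancreatic acinar cells (4 genes), organs that also express family 2 genes, had 0 reads in both libraries. Of 4 markers of intestinal epithelium, Sis was at 0, Vil1 had 5 and 1 reads, Lgals4 67 and 74, and Fabp2, which liver also expresses, 4258 and 4204. Of 4 adipocyte markers, Lep and Plin1 were at 0 and Adipoq had 1 and 4 reads, while Cfd, the complement factor adipsin, had 711 and 104 (-2.54). Summed markers of other liver cells were 143 and 206 CPM for endothelium (5 genes measured) and 372 and 304 for Kupffer cells (6 genes). Stellate cell markers summed to 261 and 259 CPM (5 genes), of which Dcn gave 216 and 220. Cholangiocyte markers summed to 8.87 and 8.61 CPM (5 genes, of which only Sox9 was measured, at 0.08). Single markers differed more than these sums. The Kupffer cell marker Marco (1125 and 233 reads, -2.04) and the stellate cell marker Col1a1 (387 and 157 reads, -1.07) were at least 2-fold lower. The endothelial marker Kdr was just past 2-fold higher, at 22.8 and 45.7 CPM. The other measured markers of these cells were under 2-fold. The part of these differences in the ratios below was not tested.

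Of the 33 measured members, 9 were at least 2-fold lower in the knockout-labelled library and 1 was at least 2-fold higher. Among all measured genes 2.50% were lower by this much and 1.70% higher, 4.20% in either direction. The lower members were 3 of 4 Cyp2a genes (Cyp2a4, Cyp2a5 and Cyp2a22), all 3 measured Cyp2b genes (Cyp2b9, Cyp2b10 and Cyp2b13) and 3 of 11 Cyp2c genes (Cyp2c38, Cyp2c39 and Cyp2c69). The higher member was Cyp2d12, and none of the Cyp2e, Cyp2f, Cyp2j, Cyp2r and Cyp2u genes were 2-fold apart. By sign alone, 13 members lay above 0 and 20 below, where 48.3% of all measured genes were above and 51.7% below. The median log2 ratio of the members was -0.13 and that of all measured genes -0.012. Since these are whole livers, fewer cells that express a gene and less RNA per cell cannot be told apart.

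**Figure D1:**
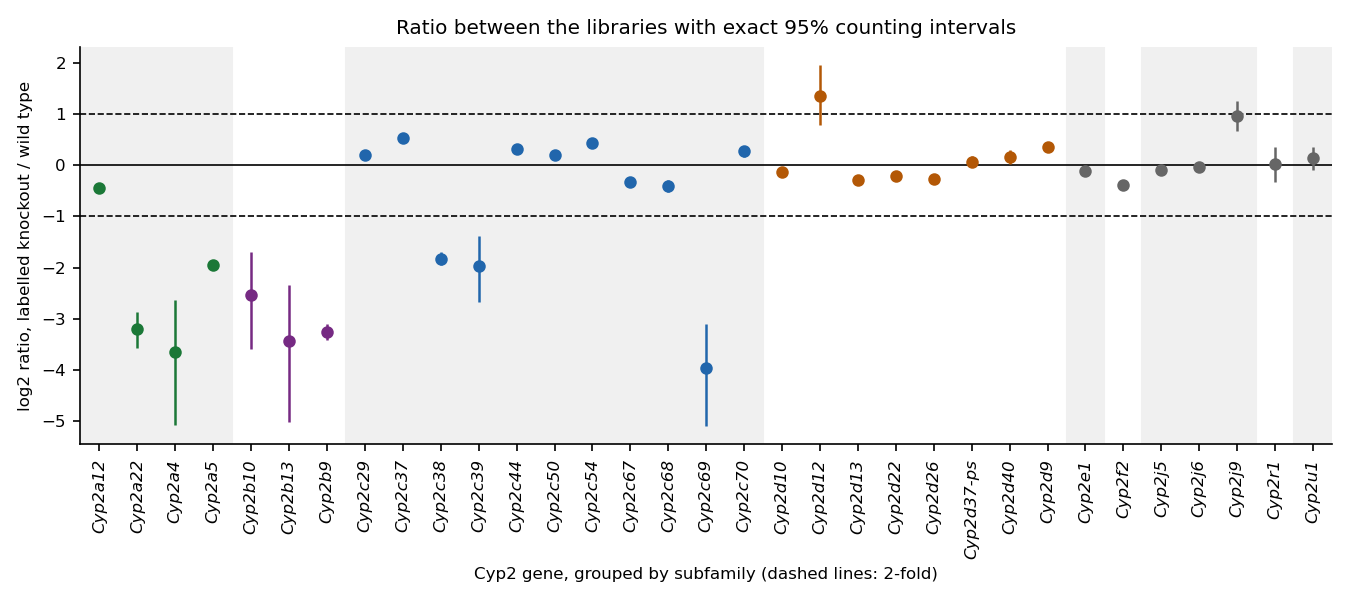
Log2 ratio of knockout-labelled to wild-type library (vertical axis) for the 33 measured Cyp2 genes, grouped and coloured by subfamily. Points are ratios from 1 library per group, bars are exact 95% intervals for counting error, and dashed lines mark 2-fold; 9 genes of the Cyp2a, Cyp2b and Cyp2c subfamilies lie below the lower line and Cyp2d12 lies above the upper.

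The family as a whole took a similar share of each library, and its most abundant gene, Cyp2e1, differed little. Its 50 members held 2.06% of reads in genes in wild type (481278 reads) and 1.99% in the knockout-labelled library (372539 reads), a summed log2 ratio of -0.14 (-0.14 to -0.13). Cyp2e1, which oxidises ethanol, acetaminophen and acetone, made up 61.9% of the family's wild-type reads and 62.5% of its knockout-labelled reads. The 9 lower members held 3.44% of the family's reads in wild type (exact binomial interval 3.39 to 3.49) and 0.795% in the other library (0.767 to 0.824). By subfamily, the summed log2 ratio was -3.25 for Cyp2b, -0.88 for Cyp2a, 0.13 for Cyp2c, -0.03 for Cyp2d and -0.07 for Cyp2j.

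Cyp2b genes had the lowest summed ratio of the subfamilies with measured members. These enzymes hydroxylate steroids and drugs, Cyp2b10 is the standard target gene of CAR, and Cyp2b9 and Cyp2b13 are known as female-biased in mouse liver. Cyp2b9 had 4348 reads in wild type (192 CPM) and 387 in the knockout-labelled library (20.1 CPM), a log2 ratio of -3.26 (-3.41 to -3.11), or 9.56-fold higher in wild type. Cyp2b13 had 81 against 6 reads (3.58 and 0.311 CPM), a log2 ratio of -3.43 with a wide interval (-5.01 to -2.34). Cyp2b10 had 84 against 12 reads, a log2 ratio of -2.53 (-3.58 to -1.70). The intervals of all 3 genes overlap, so counting error alone does not separate their ratios. Cyp2b19 (5 and 0 reads) and Cyp2b23 (1 and 0) were too low for a ratio.

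Cyp2b9 and Cyp2b13 had alike ratios but very unlike levels, although the sequence before their starts is nearly the same. In RPKM, the CPM divided by transcript length in kilobases, Cyp2b9 stood at 102 (wild type) and 10.7 (knockout-labelled), and Cyp2b13 at 1.91 and 0.166. The promoter windows, 250 bases before to 50 after each start, come from RefSeq on build GRCm38.p6 and differ at 2 of 300 bases, which are the capitals below. Both genes lie on the plus strand of chromosome 7, Cyp2b9 at chr7:26173159-26173458 and Cyp2b13 at chr7:26061245-26061544, and the pair is shown because it joins a near-identical window to a wide gap in level.
Cyp2b9: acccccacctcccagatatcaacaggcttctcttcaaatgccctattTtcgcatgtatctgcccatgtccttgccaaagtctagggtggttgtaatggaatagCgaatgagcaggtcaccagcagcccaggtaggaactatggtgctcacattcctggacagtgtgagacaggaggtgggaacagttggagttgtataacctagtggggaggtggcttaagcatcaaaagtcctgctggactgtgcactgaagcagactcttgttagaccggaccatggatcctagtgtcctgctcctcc
Cyp2b13: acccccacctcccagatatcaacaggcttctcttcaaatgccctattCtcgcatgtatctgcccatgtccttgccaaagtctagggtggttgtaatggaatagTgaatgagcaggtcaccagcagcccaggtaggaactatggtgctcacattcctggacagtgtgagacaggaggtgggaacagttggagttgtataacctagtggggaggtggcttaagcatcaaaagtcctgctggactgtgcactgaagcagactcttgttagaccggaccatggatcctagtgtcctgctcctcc
The coding sequences are less alike, with 92.7% identity and 107 of 1473 bases different. A 60-base stretch of them, coding bases 1056 to 1115 in GENCODE M21, holds 13 of those differences, in capitals, and shows that a read of 50 bases can tell the transcripts apart there.
Cyp2b9 coding: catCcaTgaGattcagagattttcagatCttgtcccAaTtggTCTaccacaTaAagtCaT
Cyp2b13 coding: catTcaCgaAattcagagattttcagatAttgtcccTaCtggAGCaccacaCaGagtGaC
Of all 50-base windows of the transcript, 88.8% for Cyp2b9 and 72.7% for Cyp2b13 were found in no other gene. Reads counted to Cyp2b13 equalled 1.86% of those counted to Cyp2b9 among wild-type reads and 1.55% among knockout-labelled reads. How many of the few Cyp2b13 reads came from misread Cyp2b9 transcripts was not tested.

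All 4 Cyp2a genes were lower in the knockout-labelled library, 3 of them at least 2-fold. Cyp2a5, the coumarin 7-hydroxylase, had 8133 reads (359 CPM) in wild type and 1803 (93.5 CPM) in the other library, a log2 ratio of -1.94 (-2.02 to -1.87). Cyp2a4, a testosterone 15-alpha-hydroxylase known as female-biased, had 109 against 7 reads (4.81 and 0.363 CPM), a log2 ratio of -3.64 (-5.08 to -2.64). The intervals of Cyp2a4 and Cyp2a5 do not overlap. Cyp2a22 had 840 against 77 reads, a log2 ratio of -3.21 (-3.57 to -2.88). Cyp2a12, a steroid and bile acid hydroxylase, was the exception in size, with 13989 against 8774 reads and a log2 ratio of -0.44 (-0.48 to -0.40), although its coding sequence is 97.0% identical to that of Cyp2a22.

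Cyp2a4 and Cyp2a5 are the closest pair of the family, with 98.4% coding identity and 23 of 1482 coding bases different. Their longest run without a difference is 216 bases, over which a 50-base read cannot be placed. The stretch with most differences, coding bases 596 to 655, holds 4, in capitals.
Cyp2a4 coding: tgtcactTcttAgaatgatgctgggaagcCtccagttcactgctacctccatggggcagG
Cyp2a5 coding: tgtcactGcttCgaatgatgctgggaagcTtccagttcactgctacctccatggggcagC
Even so, 62.0% of Cyp2a4 windows and 59.2% of Cyp2a5 windows were unique, so both genes could collect reads over a like length. Against those windows the level of Cyp2a4 in wild type was 4.60 CPM per kilobase of unique windows and that of Cyp2a5 309. Reads counted to Cyp2a4 equalled 1.34% of those counted to Cyp2a5 among wild-type reads and 0.388% among knockout-labelled reads. How many of the few Cyp2a4 reads came from misread Cyp2a5 transcripts was not tested. The promoter windows (RefSeq, GRCm38.p6, chromosome 7, plus strand) lie at chr7:26306942-26307241 for Cyp2a4 and chr7:26835089-26835388 for Cyp2a5, and differ at 5 of 299 aligned bases, again in capitals.
Cyp2a4: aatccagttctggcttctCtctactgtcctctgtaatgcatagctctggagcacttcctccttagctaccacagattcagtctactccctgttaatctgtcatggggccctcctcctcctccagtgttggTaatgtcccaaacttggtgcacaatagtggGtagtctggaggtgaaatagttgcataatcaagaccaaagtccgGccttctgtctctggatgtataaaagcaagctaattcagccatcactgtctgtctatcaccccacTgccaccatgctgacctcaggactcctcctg
Cyp2a5: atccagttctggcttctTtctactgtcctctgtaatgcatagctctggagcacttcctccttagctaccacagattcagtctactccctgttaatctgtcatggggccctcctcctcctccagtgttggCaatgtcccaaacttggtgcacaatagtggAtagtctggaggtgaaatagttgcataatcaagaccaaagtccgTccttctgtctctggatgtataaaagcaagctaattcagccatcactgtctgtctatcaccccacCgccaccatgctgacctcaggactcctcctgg

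Cyp2c genes, of which several make signalling epoxides from arachidonic acid, went both ways. Of 11 measured, 3 were at least 2-fold lower, 6 lay above 0 and none reached 2-fold higher. Cyp2c69, known as female-biased, had the lowest ratio of all measured members, with 190 reads in wild type (8.39 CPM) and 10 in the knockout-labelled library (0.519 CPM), a log2 ratio of -3.95 (-5.10 to -3.11). Cyp2c39, which can hydroxylate retinoic acid, had 122 against 26 reads, a log2 ratio of -1.98 (-2.67 to -1.38). Its neighbour Cyp2c38 was far more abundant, with 2649 against 634 reads (117 and 32.9 CPM), a log2 ratio of -1.83 (-1.96 to -1.71). Their intervals overlap, and their coding identity is 94.2%.

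Close copies within Cyp2c had unlike ratios. Cyp2c67 had 3115 wild-type and 2105 knockout-labelled reads, a log2 ratio of -0.33 (-0.41 to -0.25), and Cyp2c68 had 1609 against 1031, a log2 ratio of -0.41 (-0.52 to -0.30). Both intervals lie above that of Cyp2c69, although coding identity to Cyp2c69 was 97.7% for Cyp2c67 and 96.5% for Cyp2c68. Cyp2c40, the fourth of these copies, had 38 against 4 reads, too few for a ratio under the minimum of 50. Unique windows made up 47.2% of Cyp2c67, 56.7% of Cyp2c68, 45.2% of Cyp2c69 and 27.9% of Cyp2c40, the lowest share in the family. Coding bases 1060 to 1119 hold 8 positions at which the 3 measured copies are not all the same, in capitals, and show what a read has to go by.
Cyp2c67 coding: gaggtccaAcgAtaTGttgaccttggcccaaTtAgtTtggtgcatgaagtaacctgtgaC
Cyp2c68 coding: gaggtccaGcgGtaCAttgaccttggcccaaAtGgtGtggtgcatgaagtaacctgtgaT
Cyp2c69 coding: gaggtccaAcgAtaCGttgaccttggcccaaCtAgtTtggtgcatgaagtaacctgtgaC

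Most other Cyp2c genes were modestly higher in the knockout-labelled library. The epoxygenase genes Cyp2c37 and Cyp2c54 had the highest ratios of the subfamily, 0.52 (0.47 to 0.58) from 4375 and 5358 reads and 0.44 (0.37 to 0.51) from 3039 and 3505. Cyp2c50, with 95.2% to 96.1% coding identity to these, was at 0.20 (8082 and 7894 reads), and Cyp2c29, the most abundant Cyp2c gene by reads, was also at 0.20 (11530 and 11283 reads). Cyp2c44, an epoxygenase now named Cyp2c23, was at 0.32, and Cyp2c70, which makes the muricholic acids of mouse bile, was at 0.27 from 1328 and 1362 reads. None of these 6 intervals included 0. Cyp2c55, a gene induced through CAR, had 18 and 19 reads.

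**Figure D2:**
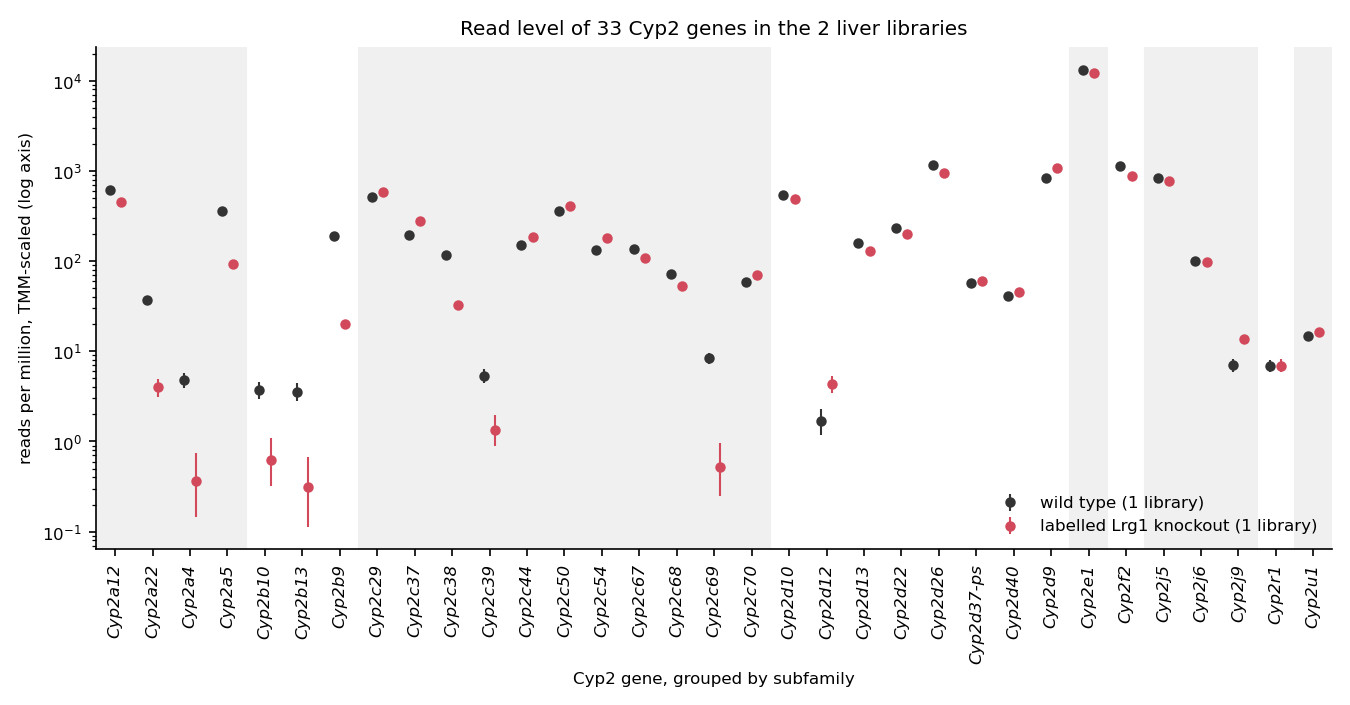
Level in each library (CPM, TMM-scaled, log axis) of the 33 measured Cyp2 genes, grouped by subfamily on the horizontal axis with shaded bands. Dark points are the wild-type library, red points the knockout-labelled library, and bars exact Poisson 95% intervals for counting error; Cyp2e1 stands highest in both, and the red points of Cyp2b9, Cyp2a22 and Cyp2c69 lie well under the dark.

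Cyp2d genes, which hydroxylate drugs and, in the case of Cyp2d9, testosterone at position 16-alpha, lay at -0.03 in sum (-0.04 to -0.01), a sign that turned with the scaling, to 0.06 with total counts and 0.03 when the 20 most abundant genes were left out of these. Cyp2d12 was the only measured member at least 2-fold higher in the knockout-labelled library, with 38 wild-type and 83 knockout-labelled reads, a log2 ratio of 1.35 (0.79 to 1.95) whose interval includes differences under 2-fold. Cyp2d9, known as male-biased, had 19137 against 20813 reads (845 and 1079 CPM), a log2 ratio of 0.35 (0.33 to 0.38). Cyp2d26, the second most abundant member by reads in wild type, had 26113 against 18501, a log2 ratio of -0.26 (-0.29 to -0.24). Among the rest, Cyp2d13 was at -0.28, Cyp2d22 at -0.21, Cyp2d10 at -0.13 and Cyp2d40 at 0.15. The pseudogene Cyp2d37-ps was at 0.07 with an interval that included 0 (1302 and 1163 reads), and RefSeq lists Cyp2d13 as a transcribed pseudogene too. Reads of Cyp2d11 (19 and 14) and Cyp2d34 (3 and 1) were under the minimum.

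Of the measured genes of Cyp2j and of the single-gene subfamilies, none was 2-fold apart, and Cyp2j9 came closest. Cyp2e1 had 297846 reads (13148 CPM) in wild type and 232824 (12074 CPM) in the knockout-labelled library, a log2 ratio of -0.12 (-0.13 to -0.12). Cyp2f2, which activates naphthalene and is expressed around the portal vein, had 25955 against 16771 reads, a log2 ratio of -0.40 (-0.43 to -0.37). Cyp2j5, an epoxygenase of liver and kidney, had 18759 against 15020, a log2 ratio of -0.09 (-0.12 to -0.06), and Cyp2j6 was at -0.04 with an interval that included 0. Cyp2j9 lay just under the threshold, with 158 against 262 reads and a log2 ratio of 0.96 (0.67 to 1.26). It was past 2-fold when libraries were scaled by total count, at 1.04, and at 1.02 when the 20 most abundant genes were left out of that total. Intervals of Cyp2r1, a vitamin D 25-hydroxylase (156 and 134 reads), and Cyp2u1, a fatty acid hydroxylase (337 and 315 reads), included 0. Cyp2g1, an olfactory P450, had 15 against 1 reads, under the minimum for a ratio.

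Ranked by RPKM, for which 32 measured members had a transcript in GENCODE M21, Cyp2e1 led at 7173 in wild type and 6587 in the knockout-labelled library. Next in wild type came Cyp2d26 (678), Cyp2f2 (614), Cyp2d9 (493), Cyp2a12 (367) and Cyp2j5 (353). In the other library the order after Cyp2e1 was Cyp2d9 (630), Cyp2d26 (564), Cyp2f2 (466), Cyp2j5 (332) and Cyp2c29 (328). Cyp2b9 went from place 12 to place 22 and Cyp2a5 from place 10 to place 15. Counted against unique windows in place of transcript length, Cyp2b9 went from place 13 to 22 and Cyp2a5 from 8 to 14.

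The lower Cyp2a and Cyp2b genes lie in 1 part of a cluster, though not all side by side. On chromosome 7 the order of the members in GENCODE M21 runs Cyp2s1, Cyp2b10, Cyp2b13, Cyp2b9, Cyp2a4, Cyp2b23, Cyp2b19, Cyp2g1, Cyp2a5, Cyp2a22, Cyp2a12, Cyp2f2 and Cyp2t4. Between Cyp2b9 and Cyp2b23 lie 5 genes of other families, none of them measured. Over the whole cluster 6 of 8 measured members were at least 2-fold lower in the knockout-labelled library, against 2.50% of all measured genes. The run from Cyp2b10 to Cyp2a22, whose ends were set from these ratios, has 9 members, and those 6 are all of its measured ones. The other 3, Cyp2b23, Cyp2b19 and Cyp2g1, had 21 wild-type reads and 1 knockout-labelled read together. Beyond this run, Cyp2a12 and Cyp2f2 were under 2-fold, and Cyp2s1 had 20 and 13 reads. The 5 nearest measured genes on each side of the cluster, 10 in all, ranged from -0.58 to 0.34 with 0 of them 2-fold apart. So the run of low ratios began and ended inside the cluster.

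On chromosome 19 the lower Cyp2c genes were interleaved with others. The order is Cyp2c55, Cyp2c65, Cyp2c66, Cyp2c53-ps, Cyp2c29, Cyp2c38, Cyp2c39, Cyp2c67, Cyp2c68, Cyp2c40, Cyp2c69, Cyp2c37, Cyp2c54, Cyp2c50 and Cyp2c70. Cyp2c38 and Cyp2c39 are adjacent and lay at -1.83 and -1.98, then Cyp2c67 and Cyp2c68 lay at -0.33 and -0.41, and Cyp2c69 was low again, next to Cyp2c37, the highest of the subfamily. The 10 flanking measured genes ranged from -0.65 to 0.32. Around the Cyp2d cluster on chromosome 15 and the Cyp2j cluster on chromosome 4, 0 of 10 flanking genes were 2-fold apart in each case.

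**Figure D3:**
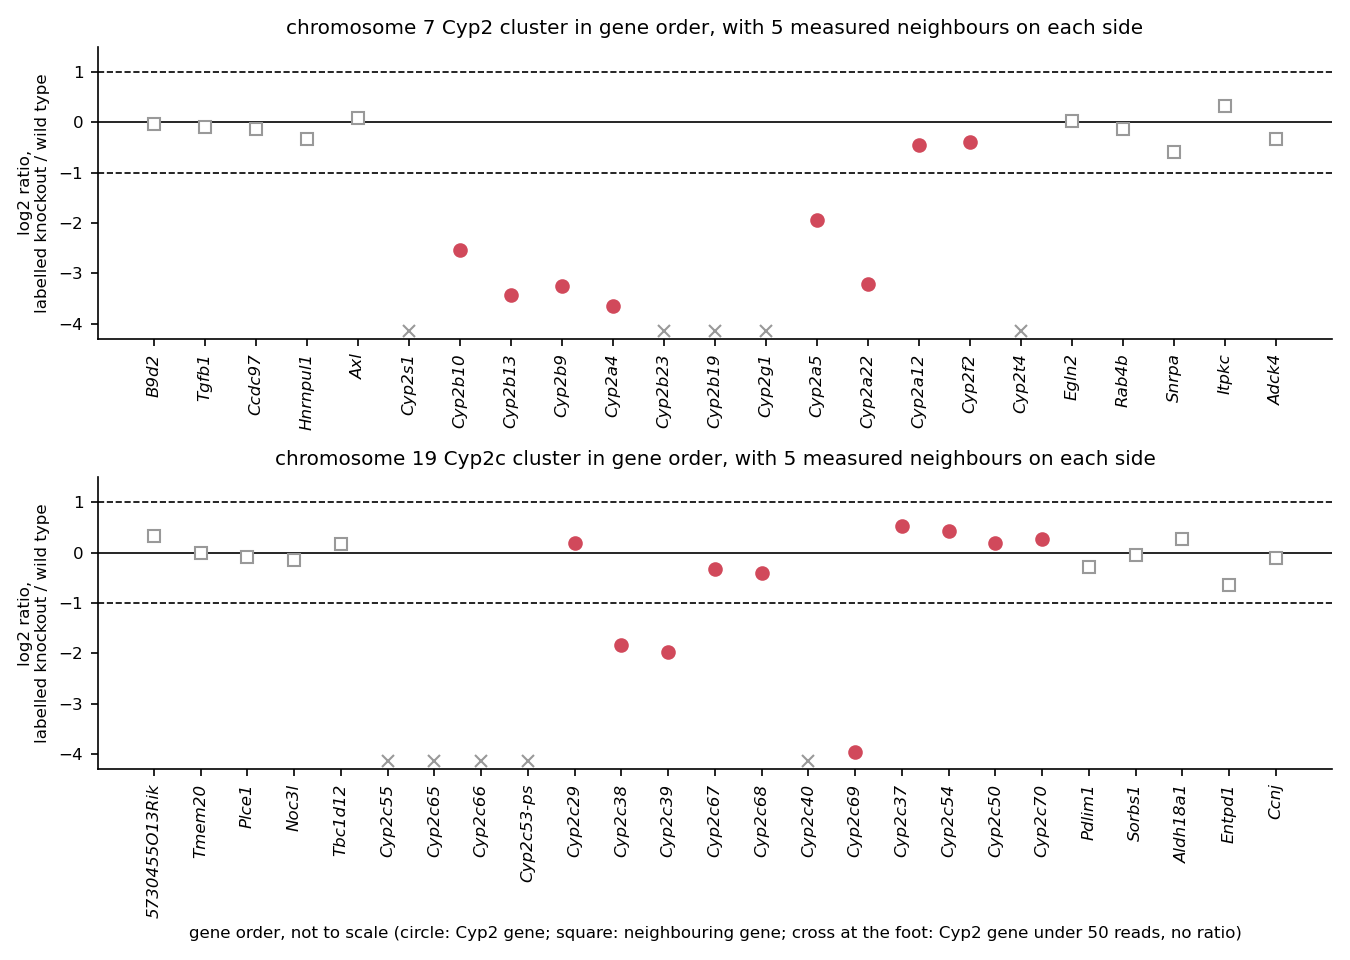
Log2 ratio of knockout-labelled to wild-type library (vertical axis) in gene order, not to scale, for the Cyp2 cluster of chromosome 7 (top) and the Cyp2c cluster of chromosome 19 (bottom). Red circles are Cyp2 genes, open squares the 5 nearest measured genes on each side, crosses at the foot Cyp2 genes under 50 reads; the 6 measured genes from Cyp2b10 to Cyp2a22 lie below the 2-fold line, and the flanking genes lie between -0.65 and 0.34. Genes of other families inside the chromosome 7 cluster, 5 in all and none measured, are not drawn.

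Low ratios were found both among genes that reads place well and among genes that share sequence. Of 13 measured members with under 75% unique windows, 5 were at least 2-fold lower, with a median log2 ratio of -0.41. Of 19 with 75% or more, 4 were at least 2-fold lower and 1 at least 2-fold higher, with a median of -0.04. Cyp2b9, Cyp2b10, Cyp2c38 and Cyp2c39, all between 88.0% and 92.6% unique, were the 4 lower genes of the second set. Sums over whole subfamilies were -3.25 for Cyp2b and -0.88 for Cyp2a, under 2-fold, where Cyp2a12 gave 13989 of 23071 wild-type reads. For Cyp2c the sum was above 0, at 0.13, although 3 of its genes were at least 2-fold lower. Alignments that were not unique made up more of the knockout-labelled library (58.0% of its lines) than of wild type (50.3%), and the part of this in the ratios of close copies was not tested.

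**Figure D4:**
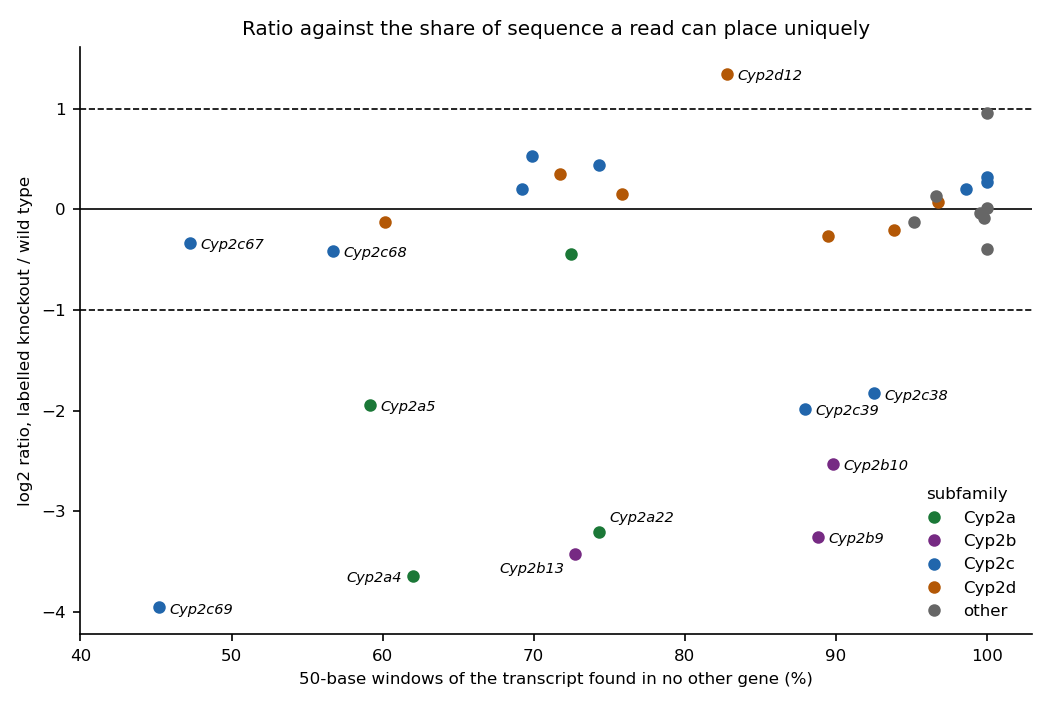
Log2 ratio of knockout-labelled to wild-type library (vertical axis) against the percentage of a transcript's 50-base windows found in no other gene (horizontal axis), for 32 measured Cyp2 genes coloured by subfamily. Dashed lines mark 2-fold; low ratios occur from 45.2% (Cyp2c69) to 92.6% (Cyp2c38), and genes near 100% lie mostly near 0.

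Grouped by what is known of their control, the female-biased members stood lowest. The lists of sex-biased genes used here, within and outside the family, were drawn up with results of these data known and are no independent support. All 6 measured genes of the female-biased Cyp2 list were at least 2-fold lower in the knockout-labelled library, against 2.50% of all measured genes. These 6 were Cyp2a4, Cyp2b9, Cyp2b10, Cyp2b13, Cyp2c39 and Cyp2c69, with a median log2 ratio of -3.34. The 2 unmeasured genes of this list, Cyp2c40 and Cyp2g1, had 38 against 4 and 15 against 1 reads. The male-biased Cyp2d9 and Cyp2u1 were at 0.35 and 0.13. Both libraries are labelled male. Outside the family, all 12 measured genes of a male-biased list were above 0 and 8 were at least 2-fold higher. Of all measured genes 48.3% were above 0 and 1.70% at least 2-fold higher. Among the 8 were Hsd3b5, a steroid dehydrogenase, at 3.70 and the urinary protein gene Mup7 at 2.23. In the female-biased list from outside the family 3 of 10 genes were measured, and the steroid hydroxylase Cyp17a1 was at least 2-fold lower (1270 and 138 reads, -2.97). The other measured genes of that list were Fmo2, a monooxygenase, at -0.80 (335 and 164 reads) and Acot3, a thioesterase, which was above 0 at 0.21 (570 and 561 reads). Of its unmeasured genes, the sulfotransferase Sult3a1 had 21 against 0 reads and the oxidase Hao2 21 against 0. The rest were Cyp3a44 with 13 against 6, A1bg with 7 against 3, Cux2 with 7 against 5, Sult2a1 with 4 against 0 and Cyp3a41a with 0 in both.

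Members known for expression around the central vein had no common direction. Of 7 such genes, Cyp2a5 and Cyp2c38 were at least 2-fold lower, as were 2.50% of all measured genes. Cyp2e1 was at -0.12, and Cyp2c29, Cyp2c37, Cyp2c50 and Cyp2c54 were above 0. The median of the 7 was 0.20.

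Genes for electron transfer, epoxide hydrolysis and haem turnover lay mostly slightly below 0, and none of them was 2-fold apart. Of all measured genes 51.7% were below 0, and scaling by total count raised ratios by about 0.08. Por, the electron donor, had 9949 wild-type and 4463 knockout-labelled reads, a log2 ratio of -0.92 (-0.98 to -0.87). Of 9 genes for electron transfer and for hydrolysis of epoxides, 6 were below 0, with a median of -0.10. Cytochrome b5, listed as Cyb5, was at -0.04, its reductase Cyb5r3 at -0.47, the microsomal epoxide hydrolase Ephx1 at -0.39 and the soluble epoxide hydrolase Ephx2, which breaks down the epoxides that Cyp2c and Cyp2j enzymes make, at 0.46. In haem synthesis and breakdown 10 of 11 genes were below 0, with a median of -0.16. Alas1, the rate-limiting enzyme of haem synthesis in liver, was at -0.42 (22154 and 14125 reads), followed by Hmox2 at -0.22, Cpox at -0.21 and Uros at -0.17, whose interval included 0.

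Of 26 regulators of P450 genes, 25 were measured, with 3 at least 2-fold lower and 0 at least 2-fold higher in the knockout-labelled library. Among all measured genes 2.50% were lower and 1.70% higher by this much, and the list was chosen with earlier results of these data known. Dbp, a clock-controlled factor known to bind the promoters of Cyp2a4 and Cyp2a5, had 2249 wild-type and 193 knockout-labelled reads, a log2 ratio of -3.31 (-3.53 to -3.10). Its relative Tef was at -1.36 (4166 and 1386 reads). Bcl6, a repressor of growth hormone targets, was at -1.12 (567 and 222 reads). The xenobiotic receptor CAR, encoded by Nr1i3, was at -0.14 (-0.20 to -0.08), and Hnf4a, a receptor that drives many liver genes, at -0.51. Onecut1, a hepatocyte factor, lay just under 2-fold higher at 0.98 (261 and 440 reads). The median of the list was -0.21, against -0.012 over all measured genes. The part of these regulators in the ratios of Cyp2 genes was not tested.

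**Figure D5:**
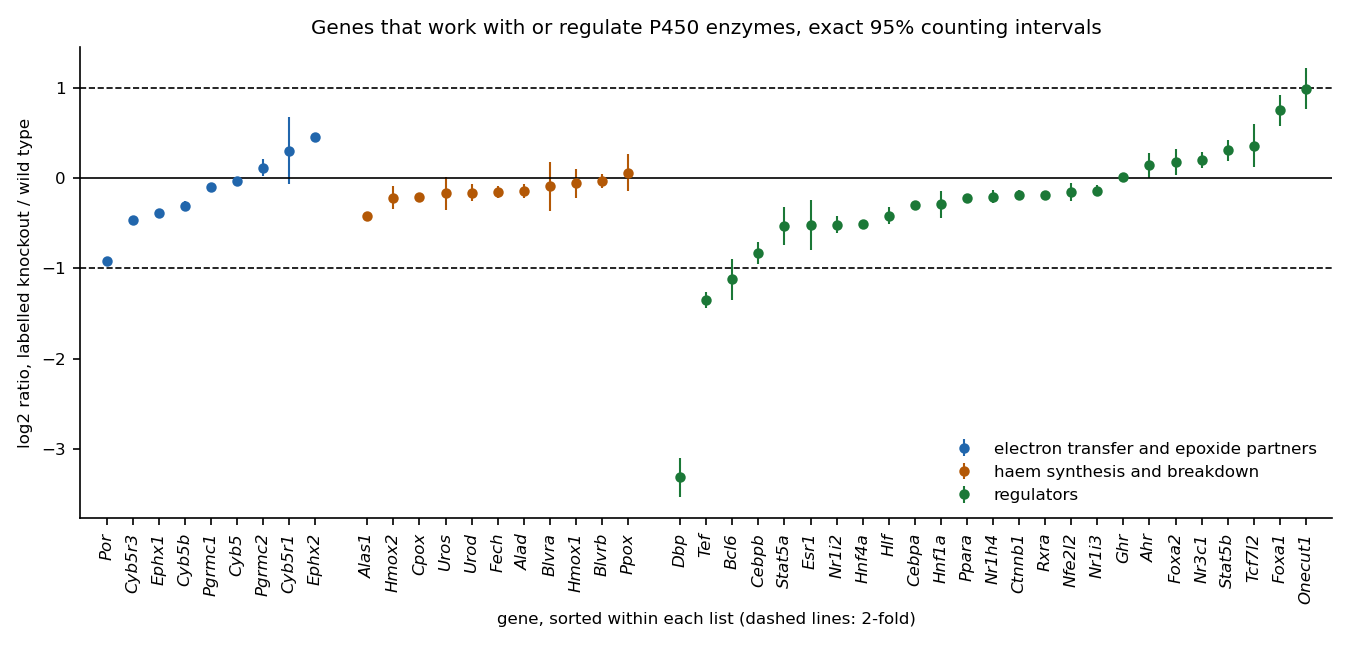
Log2 ratio of knockout-labelled to wild-type library (vertical axis) for genes of electron transfer and epoxide hydrolysis (blue), haem synthesis and breakdown (orange) and regulators of P450 genes (green), sorted within each list. Points come from 1 library per group, bars are exact 95% intervals for counting error and dashed lines mark 2-fold; Dbp, Tef and Bcl6 lie below the lower line.

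Promoter windows of 300 bases were found in RefSeq for 26 of the 33 measured members, 27 windows in all, and searched on both strands for 5 short motifs. The letters CAAAGTCCA, read by HNF4, were in 4 of 27 windows (14.8%) and in 0.475% of 32851 windows of all genes. Those 4 belonged to Cyp2c67, Cyp2c68, Cyp2c69 and Cyp2c70, of which the first 3 are close copies. The windows of Cyp2c67 (chr19:39648993-39649292, minus strand) and Cyp2c69 (chr19:39886720-39887019, minus strand) both hold these letters, in capitals below, at position -125 from the start in Cyp2c67 and -75 in Cyp2c69. The letters TATAAA, another of the 5 motifs, lie at -40 in Cyp2c67 and at 10 in Cyp2c69, so both motifs are shifted alike against the annotated starts. The windows are 92.8% identical over 250 aligned bases, yet the genes' ratios were -0.33 and -3.95.
Cyp2c67: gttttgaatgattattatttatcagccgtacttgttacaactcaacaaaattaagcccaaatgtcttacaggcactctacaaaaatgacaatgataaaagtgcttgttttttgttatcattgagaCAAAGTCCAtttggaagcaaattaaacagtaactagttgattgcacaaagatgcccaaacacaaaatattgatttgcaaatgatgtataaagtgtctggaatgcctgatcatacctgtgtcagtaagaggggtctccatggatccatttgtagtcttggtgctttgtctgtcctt
Cyp2c69: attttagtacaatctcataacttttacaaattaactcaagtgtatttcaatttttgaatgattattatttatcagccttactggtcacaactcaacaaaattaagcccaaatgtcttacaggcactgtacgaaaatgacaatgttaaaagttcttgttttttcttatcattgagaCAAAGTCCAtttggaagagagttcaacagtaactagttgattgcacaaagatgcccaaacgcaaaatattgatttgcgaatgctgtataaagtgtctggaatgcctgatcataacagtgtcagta
TATAAA was in 16 of 27 windows (59.3%) against 13.6% of all. The letters TTCNNNGAA, bound by STAT factors, were in 0 of 27 member windows against 8.30% of all, and the half-site of HNF1 in 0 against 0.399%. TTANGTAA, a loose pattern for Dbp sites, was in 1 (Cyp2c38, -1.83, where the gene strand reads TTACCTAA) against 2.32%. Other forms of a Dbp site were not searched, so such sites in Cyp2a4, Cyp2a5 or other members would be missed. Matches of different motifs overlapped in 0 places of the member windows. A match is a description of the sequence, and a window without one shows only that the letters are not there.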

How the data were processed

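Poly(A)-selected, stranded libraries from about 500 ng of total RNA were sequenced as single reads of 50 bases, per the labels' protocols. The deposited files hold raw counts of reads for each gene symbol; bcl2fastq, TopHat2, HTSeq and build mm9 are named in the submitters' processing notes. Annotation, strand setting: not given in the sources used here. Lines that name no gene stayed out of library sizes, and 14.0% and 14.4% of unique reads fell outside genes. TMM factors (0.972 and 1.03; edgeR 4.0.16, R 4.3.3) scaled the libraries. Log2 ratios used a prior count of 0.5, scaled to library size, and at least 50 summed reads. Ratios have exact Clopper-Pearson and levels of measured genes exact Poisson intervals at 95%, for counting error only, since PCR reads without identifiers are no independent molecules. A CPM of 0.0441 (wild type) or 0.0519 is 1 read, and 0 reads allow up to 0.132 or 0.156 CPM (3 counts, a one-sided limit). No test was run.

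Unique windows, lengths, coding identity and gene order came from GENCODE M21 (GRCm38), so they approximate mm9; 49 of 50 members matched, all but Cyp2d13. Of measured members, 9 overlap another annotated gene, among them Cyp2a4, Cyp2a22, Cyp2b13 and Cyp2d12, and without the strand setting such reads cannot be told apart. All members with 50 reads could be named, as could the unmeasured genes of the female-biased list from outside the family. Of the other lists, genes 2-fold apart, the 4 farthest from 0 and Por, Cyb5, Alas1, Nr1i3 and Hnf4a could be named. A further 3 genes of these lists are not reported here and enter no count of a list. Members and lists were chosen with earlier results of these data known; motifs, neighbours and printed sequences were chosen after ratios were seen. Steps were tested on simulated counts. Alternatives included DESeq2 1.42.0 size factors. Python 3.11.15, numpy 2.4.6, pandas 2.3.3, scipy 1.17.1, Biopython 1.88 and matplotlib 3.10.9 were used.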

Additional observations from a re-analysis of the deposited data

Results flagged for a closer look

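Lines for reads that aligned to several places drew attention as a large signal outside the counts per gene. They were 58.0% of what was counted in the knockout-labelled library against 50.3% in wild type, or 1.62 and 1.18 for each read counted in a gene. Which of them came from Cyp2 genes is not analysed here, and their part in the ratios was not tested.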

How the results depend on the processing

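The number of members at least 2-fold lower was 9 under the 3 other scalings, thinning, a prior of 2 and thresholds of 1.5-fold and 3-fold, 8 among members with at least 50% unique windows and 5 from 200 summed reads, where fewer members are tested. The number 2-fold higher was 2 with total-count scaling, with total count without the 20 most abundant genes and at 1.5-fold, the added gene being Cyp2j9, and 0 at 3-fold and from 200 reads. Under total-count scaling the median log2 ratio moved from -0.13 to -0.0435 and the log2 ratio of the summed reads from -0.137 to -0.0544. With the 20 most abundant genes left out of the total these were -0.0670 and -0.0779, and with thinning the sum was -0.129. The family median and sum stayed below 0 under these. Under both total-count scalings Cyp2j6 changed sign, as did the Cyp2d sum (from -0.03 to 0.06 and 0.03); the Cyp2j sum went from -0.07 to 0.01 by total count and -0.01 without the 20 most abundant genes. Of members that were 2-fold apart, 0 changed sign under any scaling, thinning or prior. No paired analysis was possible because each group has 1 library. Depth limits the 17 members under 50 reads; Cyp2b13 (87 reads in all) and Cyp2b10 (96) lay just inside that minimum and Cyp2c40 (42) just outside.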

Other observations

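Other genes of liver zonation are given here for comparison with the zoned Cyp2 genes. Of all measured genes 2.50% were at least 2-fold lower and 1.70% at least 2-fold higher. Of 10 further genes expressed around the central vein, 1 was at least 2-fold lower in the knockout-labelled library, the ammonium transporter Rhbg (381 and 147 reads, -1.14), and the median was -0.18. The stem cell marker Lgr5 was at 0.47, the P450 gene Cyp1a2 at 0.44 and the transcription factor Tbx3 at -0.42. Of 9 further genes expressed around the portal vein, 1 was at least 2-fold higher, the adhesion gene Cdh1 (271 and 601 reads, 1.38), with a median of -0.14. The serine dehydratase Sds was at -0.88, the gluconeogenic Pck1 at 0.58 and Cps1 of the urea cycle at -0.54.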
